A study of Drosophila melanogaster with 6 samples.

Results

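Epithelial polarity and junction genes were described here as 10 genes of Drosophila melanogaster, chosen by name from the 17559 gene identifiers of the count table. They were shotgun (shg), crumbs (crb), stardust (sdt), Patj, bazooka (baz), par-6, aPKC, scribble (scrib), discs large 1 (dlg1) and l(2)gl. All 10 were found by symbol, and all 10 passed the filter on low counts that left 8707 genes in the test. RNA had been measured in 3 dorsal and 3 ventral libraries of the outer proliferation centre, a neuroepithelium of the larval optic lobe. Each library held GFP-labelled cells drawn by glass micropipette from late second-instar (late L2) brains, with the cells of 3 to 4 brains pooled. Dorsal and ventral larvae alike were labelled female and raised at 25 °C on the same food. Not given in the sources used here are the strain and the driver of the GFP label. The labels name no sampling days either, so the p-values set a difference only against the spread among these pooled samples. The comparison of dorsal with ventral asks whether the polarity machinery of the neuroepithelium was read at different levels on its 2 sides.

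Epithelial cells hold their apical, lateral and basal surfaces apart through protein complexes that exclude each other from the membrane. The Crumbs and Par complexes mark the apical surface, the cadherin belt joins neighbouring cells just below it, and the Scribble module holds the lateral surface. Neuroepithelial cells of the optic lobe keep this architecture, and neuroblasts that leave the epithelium lose their cadherin belt but reuse the Par complex and the Scribble module to divide asymmetrically.

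The Spalt genes salm and salr and the gene disco were picked with earlier results of these data known. Their values set the groups apart but are no independent check of the labels. The transcription factor genes salm and salr stood at 33.97 to 60.0 CPM (read counts on a shared library total, with TMM factors) in dorsal libraries, against 0.0491 to 0.417 CPM in ventral libraries. The gene disco stood at 0.624 to 3.59 CPM in dorsal libraries, against 32.6 to 61.4 CPM in ventral libraries. Total counts ran from 21114019 to 27815885 reads per library, and the members held between 340 and 12451 reads in each library. Counting error of the reads alone was then at most 5.42% of a value. Any error from sampling molecules before amplification is not in this figure and was not measured. Markers of the neuroepithelium were read in every library: their 10 genes summed to 2206 to 2782 CPM in dorsal libraries, against 2167 to 3592 CPM in ventral libraries, with the spatial factor gene Rx at 0 reads in ventral replicate 2. Neuroblast markers were read too, at 1158 to 1851 CPM over 10 genes in dorsal libraries, against 1342 to 2106 CPM in ventral libraries. Neuron markers summed to 658 to 1101 CPM in dorsal libraries, against 789 to 1350 CPM in ventral libraries. With edgeR 0 tested genes of either kind, of the neuroepithelium, of glia (9) or of hemocytes, fat body and muscle (3) passed over all genes. At an unadjusted p under 0.05 there were 4 neuron genes, brp, Syt1 and nSyb with higher ventral and cac with higher dorsal estimates, and 0 in the other marker lists, and DESeq2 called 1 of them, cac. In these bulk samples fewer cells of a type and less RNA per cell cannot be told apart.

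No member passed the test of dorsal against ventral libraries. With edgeR's quasi-likelihood test, 0 of 10 had an adjusted p under 0.05 over the 8707 genes, where 0.0919% of all tested genes did. At an unadjusted p under 0.05 there were also 0 of 10, against 3.2% of all tested genes. DESeq2 called 0 of 10 (0.322% of all tested genes), limma-voom 0 of 10 (0.126%) and limma-trend on the deposited normalized counts 0 of 10 (0.0919%). The dorsal and ventral ranges overlapped for each of the 10 genes, where 7.26% of all tested genes had ranges that did not overlap. Of the members 5 had a higher estimate in dorsal and 5 in ventral libraries, and 50.3% of all tested genes had a higher estimate in dorsal libraries. The median log2 fold change, dorsal minus ventral, was -0.018 over the members and 0.0012 over all tested genes, and the median of its absolute value was 0.17 and 0.18. Among tested genes with a mean of at least 10 CPM, a level that all 10 members exceed, the median absolute value was lower, at 0.13. The sign of the members' median rested on single libraries. It stayed negative without dorsal replicate 1 (-0.11) and without ventral replicate 3 (-0.078). It turned positive without dorsal replicate 2 (0.017), dorsal replicate 3 (0.032), ventral replicate 1 (0.0029) or ventral replicate 2 (0.0018).

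**Figure D1:**
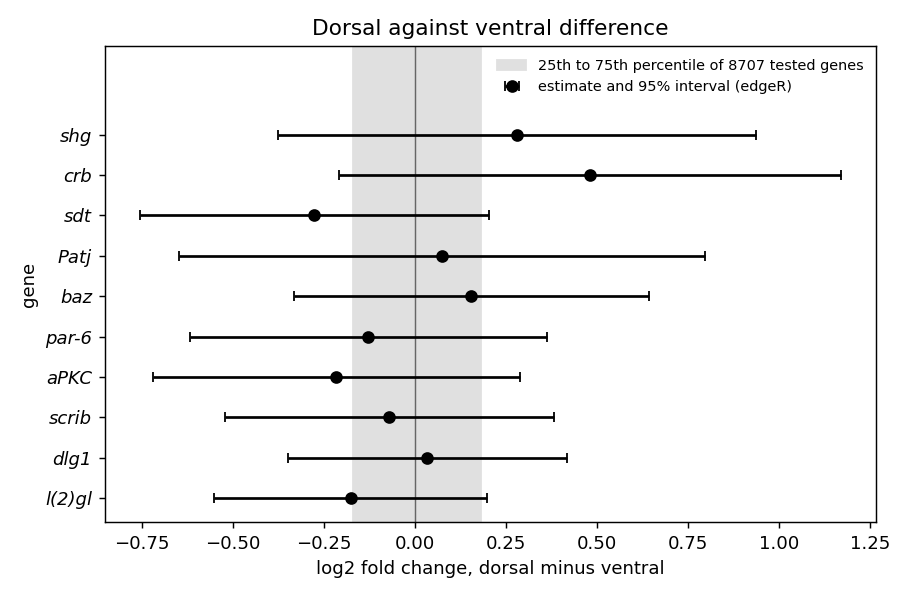
Estimated log2 fold change, dorsal minus ventral, of the 10 genes with 95% intervals from the edgeR fit (3 dorsal and 3 ventral libraries); the grey band spans the 25th to the 75th percentile of 8707 tested genes, from -0.17 to 0.18. Every interval contains 0, and the widest reaches run to -0.76 for sdt and to 1.17 for crb.

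The data bounded the size of any difference. The 95% intervals reached no lower than -0.76 (sdt) and no higher than 1.17 (crb) on the log2 scale. The narrowest was that of l(2)gl, from -0.55 to 0.20. A p that misses the threshold does not show that the levels were alike, and the intervals of the 7 adherens junction, Crumbs and Par genes each reached at least as far from 0 as the -0.62 of par-6, where those of the Scribble module reached no farther than -0.55.

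The adherens junction gene shg encodes E-cadherin, the transmembrane protein whose belt holds epithelial cells together (FBgn0003391, BDGP6, dm6 coordinates, chromosome 2R, 21049654 to 21057197, minus strand). It stood at 210, 136 and 122 CPM in dorsal replicates 1, 2 and 3, against 91.2, 186 and 108 CPM in ventral replicates 1, 2 and 3. The highest library was dorsal replicate 1 and the lowest ventral replicate 1, but ventral replicate 2 lay above both other dorsal libraries. The dorsal mean was 156 ± 47.4 CPM and the ventral mean 128 ± 50.8 CPM (SD, n = 3 each), a log2 fold change of 0.28 ± 0.30 (SE, adjusted p = 1.00, edgeR). This estimate rested on single libraries: without dorsal replicate 1 it was 0.00036, without ventral replicate 1 it was 0.084, without ventral replicate 2 it was 0.64, and without ventral replicate 3 it was 0.16. Leaving out dorsal replicate 3 gave 0.43.

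The Crumbs complex is the apical determinant: crb encodes its transmembrane protein, sdt the MAGUK scaffold that binds the tail of Crb inside the cell, and Patj a scaffold with many PDZ domains. Of the 3 genes, crb had the higher estimate in dorsal cells, sdt the higher in ventral cells, and Patj lay near 0. None passed the test.

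The gene crb (FBgn0259685, chromosome 3R, 24295078 to 24314541, plus strand) stood at 39.4, 19.7 and 32.9 CPM in dorsal replicates 1, 2 and 3, against 16.8, 28.2 and 20.9 CPM in ventral replicates 1, 2 and 3. Dorsal replicates 1 and 3 were above all ventral libraries, while dorsal replicate 2 was below ventral replicates 2 and 3. The log2 fold change was 0.48 ± 0.31 (SE, unadjusted p = 0.150 and adjusted p = 1.00, edgeR). That p was the smallest of the 10 and ranked 808 among 8707 genes. Expressed as a fold the difference was 1.40, with a 95% interval from 0.866 to 2.25. It was 0.25 on the log2 scale without dorsal replicate 1 and 0.32 without ventral replicate 1, and 0.72 without dorsal replicate 2. The libraries with the lowest crb, ventral replicate 1 and dorsal replicate 2, also had the lowest sums of neuroepithelium markers, at 2167 and 2206 CPM, and the highest sums of neuroblast markers, at 2106 and 1851 CPM. Single genes of both lists departed from these sums, and the part of these marker levels in the crb values was not tested.

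The gene sdt (FBgn0261873, chromosome X, 8178549 to 8240474, plus strand) stood at 48.7, 32.7 and 41.2 CPM in dorsal replicates 1, 2 and 3, against 54.5, 48.9 and 44.8 CPM in ventral replicates 1, 2 and 3. Dorsal replicate 1 alone lay within the ventral range. The log2 fold change was -0.28 ± 0.22 (SE, adjusted p = 1.00, edgeR), and it was -0.14 without dorsal replicate 2 and -0.43 without dorsal replicate 1. Patj (FBgn0067864, chromosome 3L, 1798803 to 1802184, plus strand) stood at 32.2, 15.3 and 19.3 CPM in the dorsal replicates, against 26.3, 16.7 and 20.4 CPM in the ventral replicates. Replicate 1 was the highest and replicate 2 the lowest library in both groups, and the log2 fold change of 0.074 ± 0.32 (SE, adjusted p = 1.00, edgeR) was -0.30 without dorsal replicate 1. Its exons share 177 bp, or 5.37% of its merged exon length, with the opposite-strand gene JTBR, and whether the counting used strand is not stated in the labels.

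Since crb and sdt encode partners in the same complex, their levels per length were also set against each other within each library. They are also the members with the highest and the lowest log2 fold change (0.48 and -0.28), so their ratio was the likeliest to separate the groups. The ratio of crb to sdt was 1.10, 0.816 and 1.08 in dorsal replicates 1, 2 and 3, against 0.417, 0.782 and 0.631 in ventral replicates 1, 2 and 3. All dorsal ratios were above all ventral ratios, with means of 0.999 ± 0.158 in dorsal and 0.610 ± 0.184 in ventral libraries (SD, n = 3 each). An exact two-sided permutation test gave p = 0.1, the smallest that 3 libraries against 3 allow. It was 1 of 8 ratios computed between these genes and the only one without overlap, and adjusted over the 8 it was p = 0.8 (exact permutation, Benjamini-Hochberg). The other 7, such as crb to Patj, aPKC to par-6, scrib to dlg1 and shg to arm, overlapped between the groups.

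The Par complex joins the scaffold gene baz (Par-3), the adaptor gene par-6, whose protein binds the GTPase Cdc42, and the kinase gene aPKC. The gene baz (FBgn0000163, chromosome X, 17160006 to 17200728, plus strand) stood at 76.5, 61.4 and 67.1 CPM in dorsal replicates 1, 2 and 3, against 46.2, 74.8 and 63.1 CPM in ventral replicates 1, 2 and 3. Ventral replicate 1 was the single low library. Its log2 fold change was 0.16 ± 0.22 (SE, adjusted p = 1.00, edgeR), and -0.015 without ventral replicate 1.

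The gene par-6 (FBgn0026192, chromosome X, 17703352 to 17707096, plus strand) stood at 144, 187 and 215 CPM in the dorsal replicates, against 156, 248 and 192 CPM in the ventral replicates. It was the only one of the 10 genes to be lowest in dorsal replicate 1, the library in which 6 of the 10 (shg, crb, Patj, baz, scrib and dlg1) were highest. Its log2 fold change was -0.13 ± 0.22 (SE, adjusted p = 1.00, edgeR), and 0.0098 without dorsal replicate 1. The gene aPKC (FBgn0261854, chromosome 2R, 14944458 to 14962969, minus strand) stood at 125, 89.5 and 108 CPM in the dorsal replicates, against 163, 115 and 96.5 CPM in the ventral replicates. Its highest library was ventral replicate 1, where shg, crb and baz were at their lowest. Dorsal minus ventral, the log2 fold change was -0.22 ± 0.23 (SE, adjusted p = 1.00, edgeR), and 0.021 without ventral replicate 1.

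The Scribble module holds the lateral domain through scrib, which encodes a scaffold of leucine-rich repeats and PDZ domains, dlg1, which encodes a MAGUK scaffold, and l(2)gl, which encodes a target of the aPKC kinase. All act as tumour suppressors in flies. The gene scrib (FBgn0263289, chromosome 3R, 26536350 to 26604051, plus strand) stood at 36.8, 34.6 and 29.3 CPM in dorsal replicates 1, 2 and 3, against 35.7, 36.4 and 33.5 CPM in ventral replicates 1, 2 and 3. It was the steadiest of the 10 genes, its highest library being 1.26 times its lowest. The log2 fold change was -0.069 ± 0.20 (SE, adjusted p = 1.00, edgeR).

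The gene dlg1 (FBgn0001624, chromosome X, 11369665 to 11409776, plus strand) was nearly as steady, at 138, 109 and 119 CPM in the dorsal replicates, against 122, 128 and 107 CPM in the ventral replicates, a log2 fold change of 0.034 ± 0.17 (SE, adjusted p = 1.00, edgeR). The gene l(2)gl (FBgn0002121, chromosome 2L, 9839 to 21376, minus strand) stood at 427, 337 and 414 CPM in the dorsal replicates, against 472, 384 and 475 CPM in the ventral replicates. Ventral replicates 1 and 3 lay above all dorsal libraries and ventral replicate 2 lay below dorsal replicates 1 and 3. The log2 fold change was -0.18 ± 0.17 (SE, adjusted p = 1.00, edgeR), and it was -0.076 without dorsal replicate 2 and -0.28 without ventral replicate 2.

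**Figure D2:**
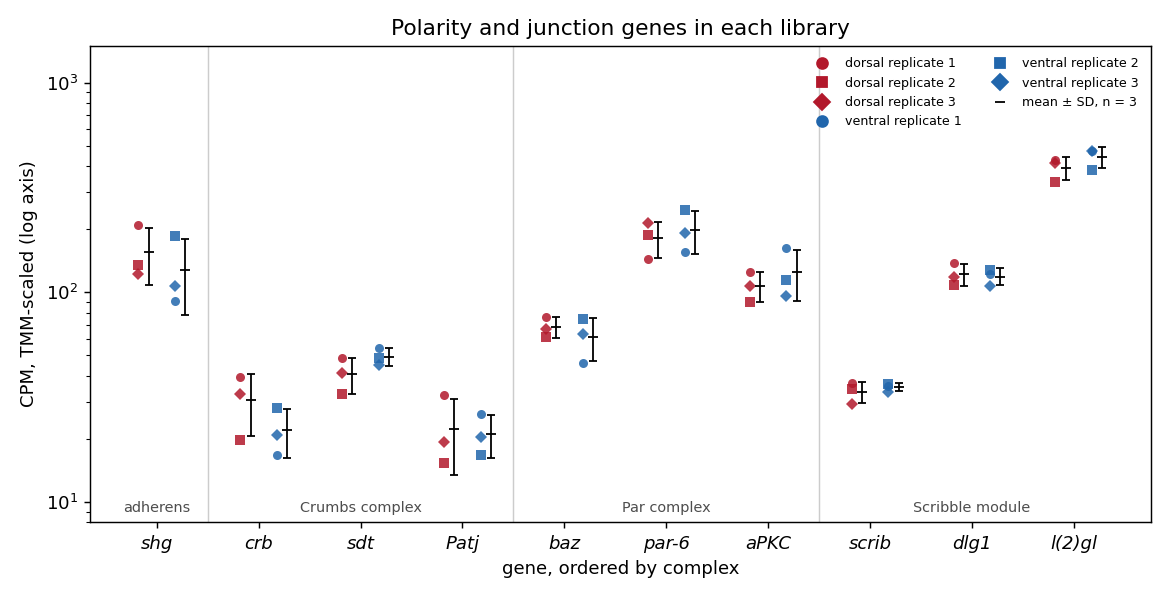
TMM-scaled CPM (log axis) of each gene in each library, dorsal in red and ventral in blue, with the mean ± SD of 3 libraries beside the points; genes run from the adherens junction through the Crumbs and Par complexes to the Scribble module. The dorsal and ventral points overlap for every gene, and the points of shg, crb and Patj are spread more widely than those of scrib and dlg1.

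In these neuroepithelium samples the 10 genes spanned a wide range of levels. The values are those of bulk samples in which neuroblast, neuron and glial markers were also read. Levels between genes were compared as CPM per kilobase of merged exon, the mean of 6 libraries. The highest were l(2)gl at 69.9 (range over libraries 56.3 to 79.4) and par-6 at 62.8 (47.5 to 81.8), which lay at the 76.7th to 84.7th percentile of the tested genes. They were followed by shg at 22.2 (14.2 to 32.8) and aPKC at 18.1 (13.9 to 25.3). Below them lay dlg1 at 10.5, Patj at 6.59, baz at 5.96, sdt at 4.09 and crb at 3.23, with scrib the lowest at 1.999 (1.70 to 2.14), at the 21.1st to 22.8th percentile.

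Not all steps of this order were larger than the spread between libraries. The ranges did not overlap between par-6 and shg, a ratio of means of 2.83, or between aPKC and dlg1, a ratio of 1.73. They overlapped for the other 7 neighbouring pairs. The gene l(2)gl was above par-6 in 3 of 6 libraries, Patj above baz in 3 and sdt above crb in 4, so those neighbours cannot be ordered. Within the Par complex baz was read at 0.109 ± 0.034 of the level of par-6 in dorsal and 0.0860 ± 0.0048 in ventral libraries (SD, n = 3 each). Within the Scribble module scrib was read at 0.185 ± 0.025 of the level of dlg1 in dorsal and 0.199 ± 0.010 in ventral libraries. The merged length counts every annotated exon, and dlg1 has 21 annotated transcripts, scrib 18, sdt 14, aPKC 12 and l(2)gl 11, against 1 for shg. With the length of the longest transcript instead, aPKC stood above shg (25.4 and 22.2) and scrib above crb (3.64 and 3.30), and the ratio of the highest to the lowest gene was 22.9 in place of 35.0. Counts per gene do not tell isoforms apart.

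**Figure D3:**
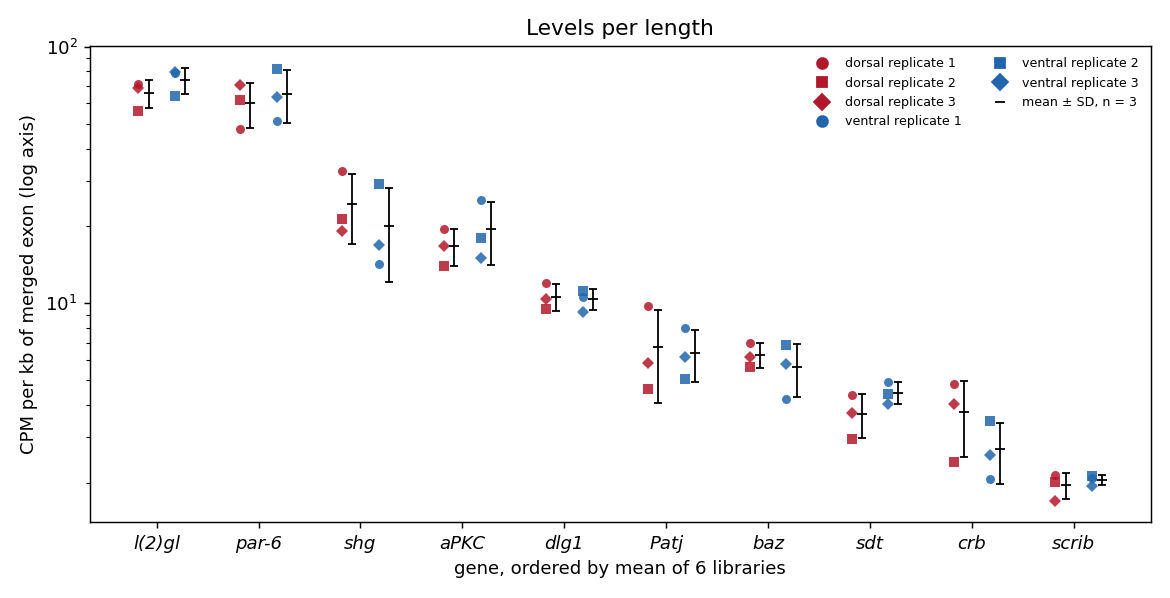
CPM per kilobase of merged exon (log axis) of each gene in each library, ordered by the mean of 6 libraries, dorsal in red and ventral in blue with mean ± SD of 3 libraries. The genes l(2)gl and par-6 lie above all others in every library, and scrib has the lowest mean at 1.999.

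The genes differed in how much they varied between libraries of the same group. The coefficient of variation in dorsal and ventral libraries was 30.4% and 39.5% for shg, 32.8% and 26.4% for crb, and 39.8% and 23.0% for Patj. It was 11.5% and 4.38% for scrib, 11.9% and 9.34% for dlg1, and 12.4% and 11.7% for l(2)gl. The median over the 10 genes was 18.1% in dorsal and 23.2% in ventral libraries, against 18.1% and 25.8% over all tested genes. Among tested genes with a mean of at least 10 CPM, a level that all 10 members exceed, the medians were 13.9% and 20.3%.

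Ventral replicate 1 split the apical genes. Relative to its own mean of 6 libraries on the log2 scale, it was low for shg (-0.58), crb (-0.58), baz (-0.47) and par-6 (-0.26), and high for aPKC (0.52), Patj (0.33) and sdt (0.29). Ventral replicate 2 lay on the other side of the mean for 5 of these 7 genes, with shg at 0.45, crb at 0.17, baz at 0.22, par-6 at 0.41 and Patj at -0.33. Dorsal replicate 1 was above the own mean for 9 of the 10 genes and dorsal replicate 2 below it for 8. The marker lists also moved between these libraries. Ventral replicate 1 held the lowest sum of neuroepithelium markers and the highest of neuroblast markers, and ventral replicate 2 the highest sums of neuroepithelium markers (3592 CPM) and of neuron markers (1350 CPM). Not all neuroepithelium markers were low in ventral replicate 1: hth (522 CPM), N (167 CPM), Delta and Vsx1 were at their lowest there, while dpp (86.7 CPM) and Rx (8.49 CPM) were at their highest. Of the neuroblast markers wor (519 CPM), dpn, mira and CycE were at their highest in that library. The other genes of that list, ase, l(1)sc, insc, pros, nab and klu, were each higher in another library than in ventral replicate 1. Of them l(1)sc held 559 of the 1514 CPM summed in ventral replicate 2. Whether each gene of the list reads neuroblasts alone was not tested. Ventral replicate 1 also held the highest sum of glial markers (1443 CPM over 10 genes). In it the glial genes zyd, wrapper and alrm stood at 39.5, 23.0 and 6.10 CPM, against at most 8.04, 7.69 and 0.708 CPM in the other libraries, and the neuron gene nSyb at 39.0 CPM, against at most 6.63 CPM. Not at their highest there were the glial genes moody (8.04 CPM) and Eaat1 (148 CPM), which stood at 11.7 and 173 CPM in dorsal replicate 1. The neuron genes VGlut (28.6 CPM) and Rab3 (16.3 CPM) were also highest in ventral replicate 1, where the neuron markers summed to 817 CPM. Of the others elav, fne, Syt1, brp and cpx were highest in ventral replicate 2, cac in dorsal replicate 1 and Syx1A in ventral replicate 3. The part of these markers in the spread of the polarity genes was not tested. Glial markers other than nrv2, which is also a septate junction gene, summed to 156 to 243 CPM in dorsal libraries, against 149 to 282 CPM in ventral libraries. Hemocyte, fat body and muscle markers summed to 85.02 to 99.96 CPM over 8 genes in dorsal libraries, against 81.3 to 96.1 CPM in ventral libraries. Most of this was the fat body gene ppl, at 80.7 to 92.2 CPM in dorsal libraries, against 78.1 to 87.4 CPM in ventral libraries. The muscle gene Act57B stood at 2.57 to 5.70 CPM in dorsal libraries, against 1.23 to 9.78 CPM in ventral libraries, and Mhc at no more than 1.35 CPM in dorsal libraries, against 0.758 CPM in ventral libraries. The other markers of that list, Hml, srp, Fbp1, Lsp2 and NimC1, stood at or near 0. Their highest value was 0.425 CPM in dorsal libraries, against 0.491 CPM in ventral libraries. Of them NimC1 stood at 0.115 to 0.142 CPM in dorsal libraries, against 0.247 to 0.491 CPM in ventral libraries, on at most 12 reads.

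**Figure D4:**
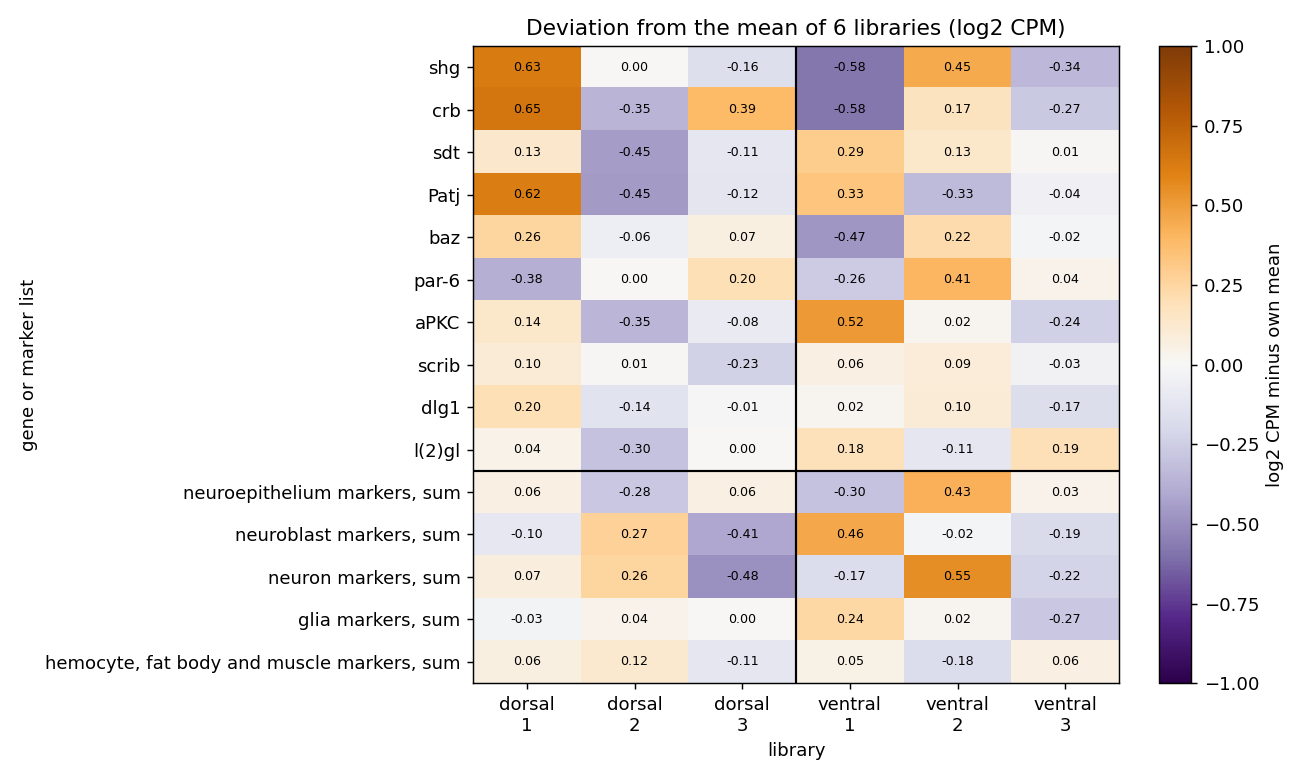
Log2 CPM of each gene, and log2 of the summed CPM of each marker list, minus its own mean over 6 libraries, with dorsal libraries left of ventral libraries. Ventral replicate 1 is low for shg, crb and baz (-0.58, -0.58 and -0.47) and high for aPKC (0.52), while scrib and dlg1 stay within 0.23 of their means in every library.

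The profiles most like those of shg and crb were sought among 6186 other tested genes with a mean of at least 10 CPM, by the root mean square difference of log2 CPM centred over the 6 libraries. For shg they were Tollo (0.14), Sap-r (0.15) and tty (0.15), against a median of 0.49 over the genes compared. Tollo, which encodes a Toll-family receptor, stood at 72.3, 41.6 and 36.9 CPM in dorsal and 27.8, 74.4 and 35.0 CPM in ventral replicates 1, 2 and 3. For crb they were CG13300 (0.073), qsm (0.12) and Gp150 (0.13), against a median of 0.49, and CG13300 stood at 48.5, 22.2 and 37.3 CPM in dorsal and 19.1, 29.7 and 22.3 CPM in ventral replicates 1, 2 and 3. With 6 libraries and 6186 genes to choose from, close profiles can arise for any gene. The closest members to each other by the same measure were scrib and dlg1 (0.13), sdt and aPKC (0.15), and sdt and l(2)gl (0.16), and the least alike were Patj and par-6 (0.60). The profiles of shg and crb differed by 0.29.

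The machinery around these genes was described from 6 lists of partner genes, of which 74 were in the count table and 72 could be tested. None passed at an adjusted p under 0.05 by edgeR, DESeq2, limma-voom or limma-trend. At an unadjusted p under 0.05 with edgeR there was 1 of 72 (1.39%, against 3.2% of all tested genes). The dorsal and ventral ranges did not overlap for 6 of 72 (8.33%, against 7.26% of all tested genes). The estimate was higher in dorsal libraries for 43 of 72 (59.7%, against 50.3% of all tested genes), and the median log2 fold change was 0.044. Genes read in the same 6 libraries can move together, so such counts of directions are not independent observations.

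The 1 gene at an unadjusted p under 0.05 was CadN, which encodes N-cadherin, a cadherin of neurons and other cells. It stood at 23.0, 24.1 and 17.8 CPM in dorsal replicates 1, 2 and 3, against 42.7, 81.7 and 30.3 CPM in ventral replicates 1, 2 and 3. All ventral values lay above all dorsal values, and the log2 fold change was -1.25 ± 0.34 (SE, adjusted p = 1.00 with edgeR and 0.0830 with DESeq2). Its highest library, ventral replicate 2, also held the highest sum of neuron markers, and the part of these in its level was not tested. Among the other 10 tested cadherin and catenin partners, alpha-Cat, which links the belt to actin, stood at 370, 382 and 388 CPM in dorsal and 397, 539 and 475 CPM in ventral replicates (log2 fold change -0.31 ± 0.16, SE). The gene arm, the fly beta-catenin, stood at 382, 345 and 392 CPM in dorsal and 442, 276 and 327 CPM in ventral replicates.

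In the list around Crumbs (8 tested) the smallest p-values were those of the spectrin gene beta-Spec, at 40.9 ± 8.40 CPM in dorsal libraries against 30.7 ± 4.78 CPM in ventral libraries, and of the FERM gene Mer, at 25.4 ± 4.13 CPM in dorsal libraries against 19.1 ± 2.21 CPM in ventral libraries (SD, n = 3 each). Both had dorsal values above all ventral values. Among the Par partners and polarity kinases 9 of 10 had the higher estimate in ventral libraries, with a median log2 fold change of -0.16 and 0 calls. Over all tested genes 50.3% had the higher estimate in dorsal libraries. Among the Par partners Cdc42, whose GTPase binds the par-6 protein, stood at 748 ± 17.6 CPM in dorsal libraries against 877 ± 166 CPM in ventral libraries.

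Septate junctions seal the lateral membrane of insect epithelia. Of 19 tested septate junction genes 15 had the higher estimate in dorsal libraries, where 50.3% of all tested genes did. Their median log2 fold change was 0.13, with 0 calls. The claudin-family genes sinu and pck had the smallest p, with sinu at 79.8 ± 19.2 CPM in dorsal libraries against 57.7 ± 5.60 CPM in ventral libraries, and pck at 92.2 ± 25.5 CPM in dorsal libraries against 68.7 ± 17.4 CPM in ventral libraries. Among 14 tested genes of basal adhesion and basement membrane the laminin gene LanB2 stood at 30.1 ± 11.5 CPM in dorsal libraries against 19.9 ± 2.51 CPM in ventral libraries, and the dystrophin gene Dys at 19.2 ± 2.56 CPM in dorsal libraries against 26.2 ± 7.93 CPM in ventral libraries. Of 10 asymmetric division partners, pins, whose protein orients the spindle, stood at 59.7, 66.1 and 64.6 CPM in dorsal and 88.8, 79.8 and 78.4 CPM in ventral replicates, without overlap (log2 fold change -0.38 ± 0.17, SE, adjusted p = 1.00, edgeR). The gene pros, which encodes a transcription factor passed to the daughters of neuroblasts, stood at 168 ± 74.3 CPM in dorsal libraries against 113 ± 19.8 CPM in ventral libraries.

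**Figure D5:**
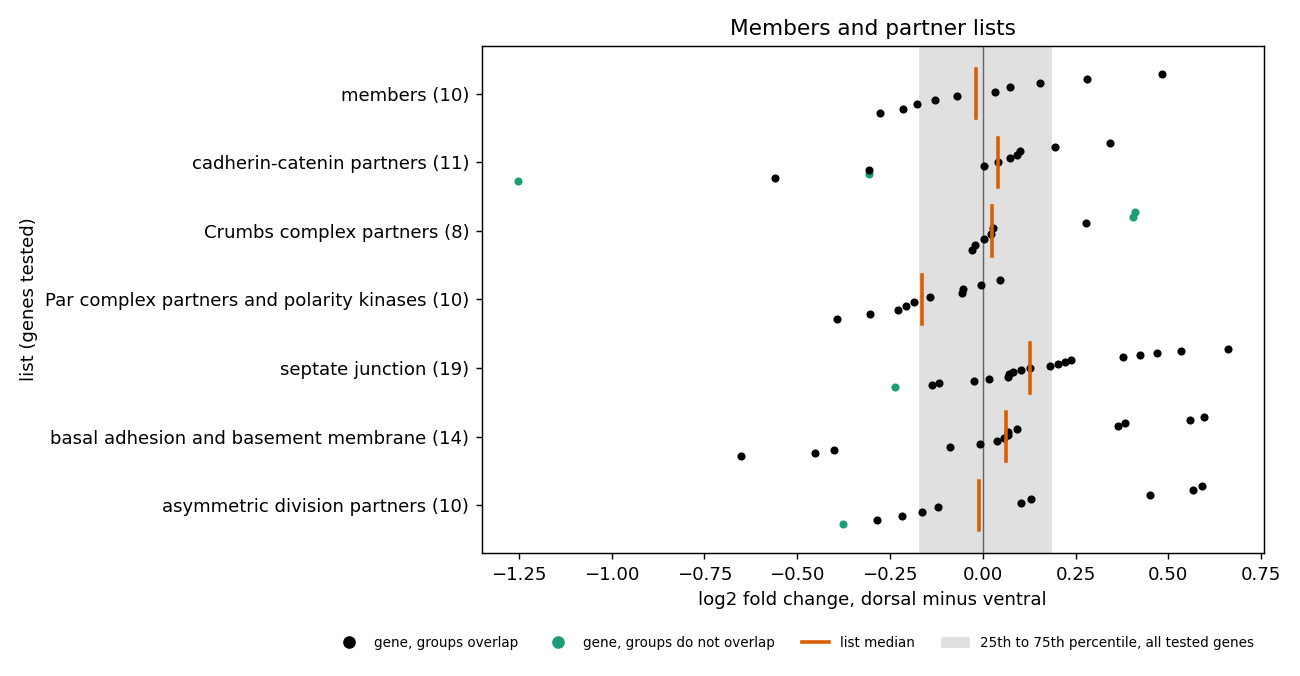
Log2 fold change, dorsal minus ventral, of the 10 members and of each tested gene in 6 partner lists (black, groups overlap; green, groups do not overlap), with the list median in orange and the 25th to 75th percentile of all tested genes in grey. CadN at -1.25 lies farthest from 0, and list medians lie between -0.16 and 0.13.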

How the data were processed

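RNA was measured in 6 libraries. The counts are deposited as whole reads per gene, without normalization by the authors. The deposited normalized counts, a signal scale, equal the counts times 1 factor per library, within 5.22e-05. The tools named in the submitters' processing notes are Trimmomatic, featureCounts and DESeq2, and the builds dm6 and BDGP6. Not given in the sources used here are the aligner, tool versions and strandedness. Per the labels' protocols, SMART-Seq v4 and Nextera XT kits were used.

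The members and lists were chosen with earlier results of these data known. Symbols came from the BDGP6 annotation (17253 of 17559 identifiers). Nectin, zip, scb, trol and esg were not analysed here, Dl was read as Delta, and aka is the same gene as bark. Counts were fitted with edgeR 4.0.16 in R 4.3.3 (TMM, filterByExpr, robust quasi-likelihood, group only), and calls were made at a Benjamini-Hochberg adjusted p under 0.05 over 8707 genes. The fit was also run on simulated counts with planted differences larger than any estimated for a member. That run does not show whether differences of the members' size would be found. The SE was taken as the size of the log2 fold change divided by the root of F, and 95% intervals use the t distribution of the fit. Alternatives used DESeq2 1.42.0 and limma 3.58.1 (a pseudocount of 1 for limma-trend). Likeness used log2 CPM with a prior count of 2. Named genes were all members, the 2 smallest p of each partner list (1 of these is not reported here), and the 3 genes most like shg and crb. Marker lists are given as sums, and arm and the single genes named from the marker lists were named after their values were seen. No libraries agreed within sampling noise.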

Additional observations from a re-analysis of the deposited data

How the results depend on the processing

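In all 16 alternative fits (upper-quartile or RLE factors, unscaled library size, DESeq2, limma-voom, limma-trend, 2 other filters, the replicate block, 6 fits with a library left out, and 1 without ventral replicates 1 and 2) 0 members and 0 partner genes were called, and the smallest adjusted p of a member was 0.923 (par-6, edgeR). Of 160 member estimates 148 kept their direction, with shg, crb, sdt and l(2)gl doing so in every fit. Patj was at -0.024 in limma-voom. Without ventral replicates 1 and 2, which leaves 1 ventral library assumed to vary like the dorsal ones, aPKC was at 0.16 and scrib at 0.0032. With each library left out in turn, Patj ran from -0.30 to 0.29, aPKC from -0.38 to 0.021, baz from -0.015 to 0.31, dlg1 from -0.069 to 0.11, par-6 from -0.28 to 0.056 and scrib from -0.15 to 0.017, so 1 library decides their direction. The longest transcript as length gave a ratio of the highest to the lowest member of 22.9, in place of 35.0, by its construction.

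With the replicate block 0 members were called and their median log2 fold change was -0.023. That median ran from -0.11 to 0.032 with each library left out in turn, was 0.016 with unscaled library size, and was 0.12 without ventral replicates 1 and 2. Deviations of same-numbered libraries from their group means had correlations of 0.0029, -0.038 and 0.059. The titles give these samples only a shared replicate number. With 3 libraries in each group, the correlations cannot show whether same-numbered samples were prepared together. Counting error of the reads, at most 5.42%, was below the members' median spread between libraries, 18.1% in dorsal and 23.2% in ventral. Any error from sampling molecules before amplification is not in the 5.42%, so the 2 figures do not separate technical from other spread.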

Other observations

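Of the 10 genes 4 (sdt, baz, par-6 and dlg1) are on chromosome X. Their median log2 fold change, dorsal minus ventral, was -0.047 and that of the 6 autosomal members 0.0025. Summed over its 3 genes, the Crumbs complex held 93.7 ± 26.3 CPM in dorsal libraries against 92.5 ± 5.88 CPM in ventral libraries. The Par complex held 358 ± 27.8 CPM in dorsal libraries against 385 ± 46.4 CPM in ventral libraries, and the Scribble module 548 ± 61.8 CPM in dorsal libraries against 598 ± 43.1 CPM in ventral libraries (SD, n = 3 each).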
